A study of Rattus norvegicus with 4 samples.

Results

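Rat neural stem/progenitor cells were compared on 2 culture platforms, PUCL and PUCL@CNT1, while they were still in the medium that keeps them undifferentiated. The comparison uses 2 of the 4 libraries of the study, chosen by their labels: wild-type cells kept for 24 h on PUCL in maintenance medium (a knockout DMEM/F12 base plus StemPro neural supplement and antibiotics), and wild-type cells kept for 24 h on PUCL@CNT1 in the same medium. The other libraries, 1 for each platform, came from cells that then spent 1.5 d in B-27 Plus neuronal medium, called differentiation medium here. They serve to show whether a platform difference was also seen there, and enter a test over all 4 libraries. Every library was made from 500 ng of Trizol-extracted RNA by a Lexogen QuantSeq protocol, in which tags come from near the polyA tail, so counts do not scale with transcript length. The series title describes PUCL@CNT materials as electroconductive and mechano-competent scaffolds that guide neuronal specification, and this comparison asks how cells on the 2 platforms differed before the medium changed. There was 1 library on each side, and the labels name no separate cultures or animals.

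Neural stem/progenitor cells divide in culture under growth factors, and keep themselves undifferentiated through Notch, BMP and Id signalling while low levels of proneural factors prepare them for a neuronal, astrocytic or oligodendrocytic fate. Cells sense a culture surface through integrins, adhesion complexes and the actin cytoskeleton. Under oxidative stress cells are known to make antioxidant enzymes through the factor NRF2, and under protein-folding stress chaperones through heat shock factors.

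On PUCL@CNT1, the heme-degrading enzyme gene Hmox1, the antioxidant gene Srxn1, the chaperone gene Hspa1b and the peptide hormone gene Adm stood higher than on PUCL in maintenance medium, by 2.88-fold, 6.35-fold, 4.56-fold and 2.56-fold. The differentiation inhibitors Id1 and Id4, the integrin gene Itgb5, the bicarbonate transporter gene Slc4a4 and the growth factor receptor gene Igf1r stood lower, by 2.47-fold, 8.86-fold, 7.52-fold, 2.82-fold and 2.30-fold. In differentiation medium Srxn1, Id1 and Igf1r kept their direction but fell short of 2-fold. Pairs of counts in this text give PUCL against PUCL@CNT1. Of the progenitor markers, Nes at 2420 against 2363 counts and Sox2 at 4219 against 3989 were near 1-to-1, while the glial glutamate transporter gene Slc1a3 was 1.52-fold lower at 2388 against 1489, short of the 2-fold line. Most gene groups had few members beyond 2-fold, and their differences lay in single genes. Cholesterol synthesis genes leaned lower and cytosolic ribosomal protein genes leaned higher by small amounts spread over most of their members.

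The maintenance libraries held 6502918 counts on PUCL and 6035848 on PUCL@CNT1, with 9683 and 9592 gene symbols detected. Of 10516 genes tested, a gene was called higher or lower on PUCL@CNT1 when its ratio, scaled with edgeR's TMM factors, reached 2-fold and the nearer end of its exact 95% interval was past 1.5-fold (the size rule); 2744 were called (26.1%), 1278 of them higher (12.2%) and 1466 lower (13.9%). Such a call has no replicate behind it and no p-value. Its interval covers counting error only, and the reads carry no molecular identifiers. The calls were mostly in scarce genes: 64.3% of genes with a mean of 10 to 30 counts were past the size rule, against 4.57% of those with 300 to 1000 and 0.794% of those with 1000 or more. Scatter was larger than counting error alone, with a median absolute log2 ratio of 0.52 among genes of 100 to 300 counts where counting error alone would give 0.10. In the plot of ratio against abundance the 2744 called genes fan out to the left, and Hmox1, Adm, Id1 and Nrgn stand apart at high counts. The text below therefore counts members with a mean of at least 100 counts, of which 297 of 6110 were higher (4.86%) and 368 lower (6.02%), 10.9% in all, with a median log2 ratio of -0.01; where a list is counted, these shares are its background.

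**Figure D1:**
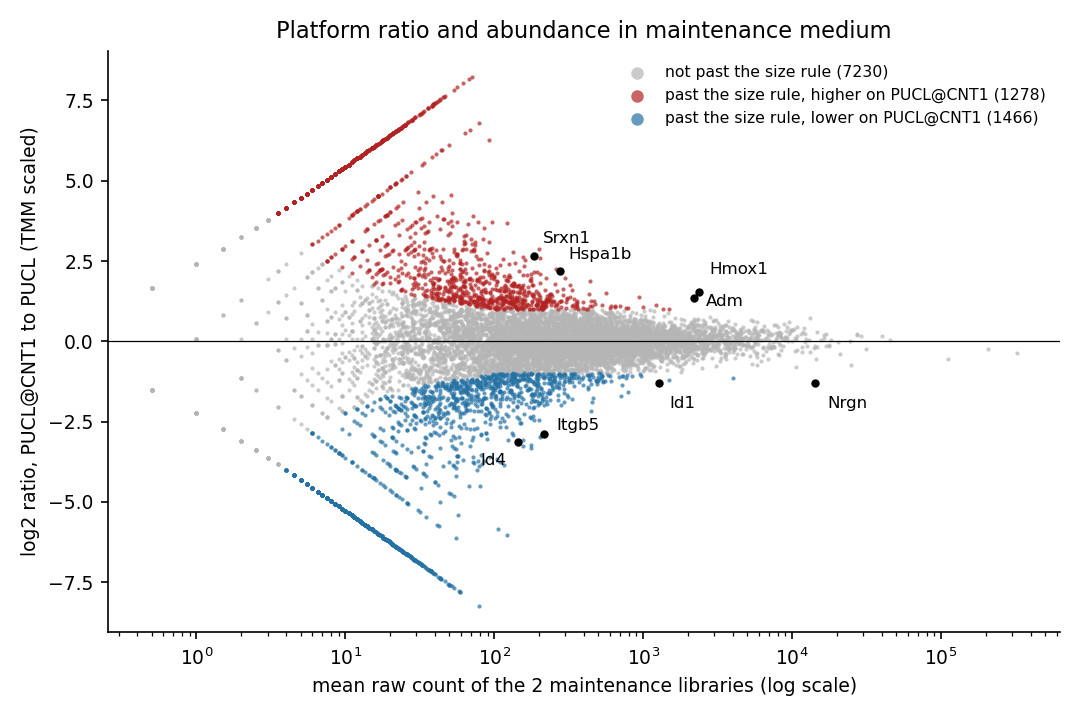
Log2 ratio of PUCL@CNT1 to PUCL in maintenance medium (y axis, scaled by TMM) against the mean raw count of the 2 libraries (x axis, log scale). Each gene tested that had a count in either of these libraries is 1 point. Red points are the 1278 genes past the size rule and higher, blue the 1466 lower, and black dots mark the labelled genes. The spread narrows as counts rise.

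Most markers of the labelled cell type were present. Of 7 neural stem/progenitor markers 6 had counts in both maintenance libraries, Nes, Sox2, Vim (28449 against 29953), Fabp7 (4037 against 3602), Slc1a3 and Notch1 (257 against 201), and their summed level was 6333 CPM (counts after TMM scaling, per 1e6) on PUCL and 6659 on PUCL@CNT1. Most of that sum was Vim, at 4314 and 4795 CPM. Of the other 5, Nes was slightly higher on PUCL@CNT1, Sox2 was near 1-to-1, and Fabp7, Slc1a3 and Notch1 were lower. Msi1 was at 0 in all 4 libraries. Oligodendrocyte lineage factors were also well expressed, with Olig1 at 1874 against 1670 counts and Olig2 at 2978 against 1975, and the 7 markers of that lineage summed to 863 and 746 CPM. Neuron markers summed to 133 and 119 CPM and astrocyte markers to 105 and 88.5 CPM. Single genes made most of these sums too, Map2 with 83.7 and 98.3 CPM and S100b with 104 and 85.5 CPM. All 7 microglia markers, and Pecam1 and Cdh5 of endothelium, were at 0 on both platforms. By counting error alone that allows up to 0.455 CPM on PUCL and 0.480 on PUCL@CNT1 (3 counts). Scatter between libraries can allow more: of genes with a mean of 10 to 30 counts, 40.8% were at 0 in 1 maintenance library. The other endothelium markers had low counts, Kdr 95 against 69, Flt1 0 against 24 and Cldn5 0 against 17, and the list summed to 14.4 and 17.6 CPM. Mural cell and fibroblast markers summed to 1084 and 763 CPM, nearly all of it Acta2 (6920 against 4664 counts), while Dcn was at 0. In RNA from a whole culture, fewer cells of a type and less RNA per cell cannot be told apart, here and in all that follows.

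Antioxidant genes held several of the clearest differences. Of 30 NRF2 and oxidative stress genes with a mean of 100 or more counts, 6 were higher and 2 lower, and the list median log2 ratio was 0.20. Hmox1, which opens the heme ring and frees its iron, had 1272 against 3474 counts, a ratio of 2.88-fold (95% interval 2.70 to 3.08). In differentiation medium it had 750 against 1554, so the PUCL@CNT1 library was the higher one in both media. Srxn1, the sulfiredoxin that repairs over-oxidised peroxiredoxins, had 53 against 319 counts, a ratio of 6.35-fold (95% interval 4.74 to 8.67), but 126 against 172 in differentiation medium (log2 0.41). The catalytic subunit of glutathione synthesis, Gclc, stood at 187 against 374 counts (log2 1.08) and again higher in differentiation medium at 128 against 300 (log2 1.19); it lies outside the rule for named genes and was chosen after its values were seen. Slc7a11, which imports the cystine that glutathione is built from, had 95 against 184 counts (log2 1.03).

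The peroxiredoxins, which reduce hydrogen peroxide, did not all stand on the same side. Mitochondrial Prdx3 had 457 against 931 counts (log2 1.10) and the endoplasmic reticulum form Prdx4 had 144 against 289 (log2 1.08), both higher on PUCL@CNT1. Prdx5 had 696 against 304 counts, 2.17-fold (95% interval 1.89 to 2.49) lower on PUCL@CNT1. In differentiation medium all of these 3 were above 0 on the log2 scale (0.70, 0.78 and 0.79), so Prdx5 was lower in 1 medium and not in the other. The promoters of Prdx4 and Prdx5, the pair that stood in opposite directions, are shown from RefSeq (GRCr8 assembly, 250 bases before to 50 bases after the gene start), with capitals on each match to the antioxidant response element TGACNNNGC searched on both strands. Of the NRF2 list, 29 genes had a promoter in that table and 9 held a match (31.0%), against 12.2% of all 27457 promoters. Other lists had like shares, with 38.1% of p53, 30% of integrated stress response, 29.6% of citric acid cycle and 29.0% of lysosome promoters.
Prdx4: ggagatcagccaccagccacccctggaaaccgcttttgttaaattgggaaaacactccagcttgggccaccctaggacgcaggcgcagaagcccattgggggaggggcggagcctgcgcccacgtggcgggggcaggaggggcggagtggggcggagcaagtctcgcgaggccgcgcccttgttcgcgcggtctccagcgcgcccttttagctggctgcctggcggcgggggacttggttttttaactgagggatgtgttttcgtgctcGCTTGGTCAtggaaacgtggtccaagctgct
Prdx5: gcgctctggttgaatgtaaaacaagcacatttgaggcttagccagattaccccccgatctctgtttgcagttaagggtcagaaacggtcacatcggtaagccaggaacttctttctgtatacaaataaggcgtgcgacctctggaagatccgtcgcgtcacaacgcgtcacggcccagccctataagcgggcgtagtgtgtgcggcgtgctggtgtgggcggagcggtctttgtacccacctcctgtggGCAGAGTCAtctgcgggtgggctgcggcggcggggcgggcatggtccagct
The Prdx4 stretch lies at chrX:43878483-43878782, plus strand, and that of Prdx5 at chr1:213531978-213532277, minus strand. Each holds 1 match, which describes the letters and is not evidence of binding.

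Iron and heme genes beside Hmox1 differed in both directions. Of 13 such genes, 2 were higher and 2 lower (median log2 0.22). The biliverdin reductases, which act after heme oxygenase, went apart: Blvra had 64 against 201 counts (log2 1.72) and Blvrb 191 against 75 (log2 -1.26). The mitochondrial iron importer Slc25a28 had 222 against 93 counts (log2 -1.17). In differentiation medium neither reductase was past the size rule, with log2 ratios of -0.47 for Blvra and 0.39 for Blvrb.

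Among heat shock genes the inducible chaperone Hspa1b stood alone in size. It had 104 against 449 counts, a ratio of 4.56-fold (95% interval 3.67 to 5.70), and 109 against 626 in differentiation medium; the levels of the 2 PUCL libraries were close to each other and both PUCL@CNT1 libraries were far above them. Bag3, a co-chaperone of Hsp70 proteins, had 124 against 237 counts (log2 1.01, and 0.82 in differentiation medium). Of 28 members 2 were higher and 0 lower, with a median log2 ratio of 0.08.

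Integrated stress response genes, which slow translation and raise amino acid supply, were split. Of 25, 3 were higher and 2 lower (median log2 0.09). Sesn2, an mTORC1 inhibitor that is also a p53 target, had 98 against 260 counts (log2 1.48), and Cebpg, a partner of ATF4, had 131 against 289 (log2 1.22). Ddit4, another mTORC1 inhibitor, had 710 against 285, 2.36-fold (95% interval 2.05 to 2.72) lower on PUCL@CNT1, and the phosphatase subunit gene Ppp1r15b had 733 against 328 (log2 -1.08). Of 28 endoplasmic reticulum genes, 2 were higher, Herpud1 (236 against 478 counts) and the chaperone partner Dnajb9 (79 against 172), and 1 was lower, the disulfide isomerase Pdia4 (384 against 164). The p53 list had 14 of 20 members above 0 (median log2 0.31). Its cell cycle inhibitor Cdkn1a had 1422 against 2174 counts, log2 0.69, under the 2-fold line in maintenance medium and past it in differentiation medium (1810 against 4664 counts). The related inhibitor gene Cdkn1b had 406 against 140 counts (log2 -1.45).

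Adm and the rest of the hypoxia list went apart. Adm, which encodes the vasodilator peptide adrenomedullin, had 1274 against 3091 counts in maintenance medium, 2.56-fold (95% interval 2.40 to 2.74) higher on PUCL@CNT1, and 1285 against 2862 in differentiation medium. Both PUCL libraries lay below both PUCL@CNT1 libraries. Among 15 hypoxia genes, 4 were above 0 and the median log2 ratio was -0.18. Glycolysis genes, many of them targets of the same hypoxia factors, had 12 of 16 members below 0 and a median of -0.37. One was past the size rule, the neuronal enolase Eno2 with 1339 against 601 counts (2.11-fold lower, 95% interval 1.92 to 2.33), a value summed over several entries and so uncertain. In differentiation medium the glycolysis median was 0.32 and Eno2 stood higher on PUCL@CNT1 (375 against 780 counts).

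**Figure D2:**
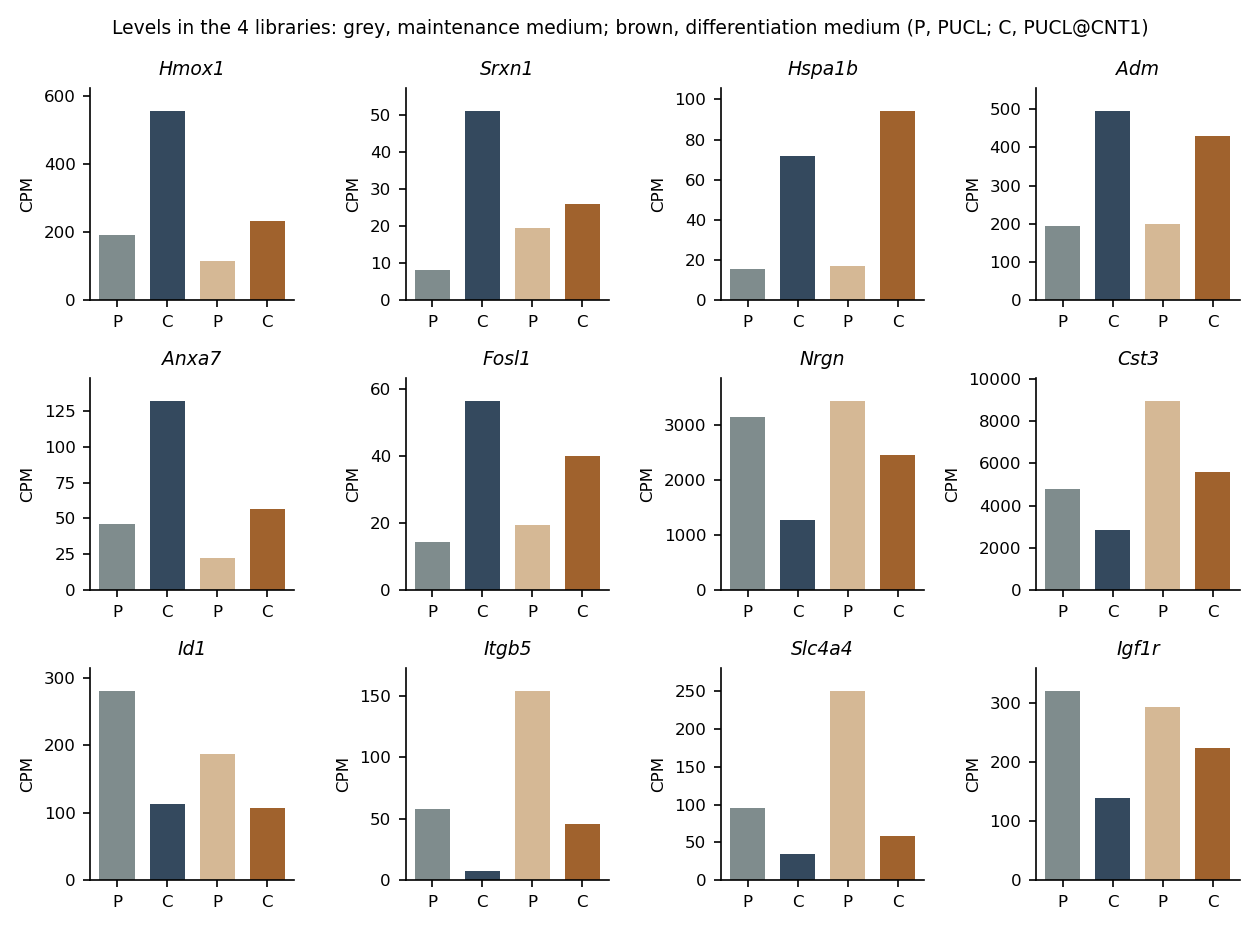
Level of 12 genes in CPM (y axes, each from 0) in the 4 libraries, 1 bar each with no replicates: grey bars are maintenance medium, brown bars differentiation medium, P is PUCL and C is PUCL@CNT1. Hmox1, Srxn1, Hspa1b, Adm, Anxa7 and Fosl1 are higher on PUCL@CNT1 in both media, and the other 6 genes are lower in both.

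Cholesterol synthesis genes, which build sterols from acetyl-CoA, leaned lower on PUCL@CNT1 almost throughout. Of 24 members, 22 had ratios below 0 and 2 above, with a median log2 ratio of -0.36; over all such genes 3082 of 6110 were below 0. The 3 past the size rule were the mevalonate kinase gene Mvk with 349 against 115 counts (2.87-fold lower, 95% interval 2.32 to 3.58), the sterol reductase gene Tm7sf2 with 1075 against 493 (2.07-fold lower, 95% interval 1.85 to 2.30) and the sterol carrier gene Stard4 with 288 against 97 (2.81-fold lower, 95% interval 2.23 to 3.58). The lean was smaller in differentiation medium, with a list median of -0.09, where Mvk had 136 against 78 counts, Stard4 91 against 34, and Tm7sf2 stood higher on PUCL@CNT1 (189 against 412). Fatty acid synthesis and oxidation genes had 16 of 25 below 0 (median -0.13) and none past the size rule; their most abundant member, the lipid carrier Fabp5, had 8030 against 6822 counts.

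Promoters of this pathway are known for CCAAT boxes, bound by the factor NF-Y, and those of Mvk and Tm7sf2 are shown with capitals on each CCAAT match on either strand (ATTGG on the other). Of the cholesterol list, 20 genes had a promoter in the RefSeq table and 16 of them held a match (80%), against 37.7% of all promoters of this length, 83.9% of those of the mitosis list and 84% of those of the endoplasmic reticulum list. No promoter of the list held the sterol element core TCACNCCAC, which 1.13% of all promoters do; that says only that these letters are not in this window.
Mvk: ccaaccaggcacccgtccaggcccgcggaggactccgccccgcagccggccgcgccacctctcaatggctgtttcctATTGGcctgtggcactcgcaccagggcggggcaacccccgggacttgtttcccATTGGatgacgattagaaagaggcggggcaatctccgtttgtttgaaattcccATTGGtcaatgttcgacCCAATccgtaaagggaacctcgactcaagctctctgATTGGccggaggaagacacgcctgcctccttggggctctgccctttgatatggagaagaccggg
Tm7sf2: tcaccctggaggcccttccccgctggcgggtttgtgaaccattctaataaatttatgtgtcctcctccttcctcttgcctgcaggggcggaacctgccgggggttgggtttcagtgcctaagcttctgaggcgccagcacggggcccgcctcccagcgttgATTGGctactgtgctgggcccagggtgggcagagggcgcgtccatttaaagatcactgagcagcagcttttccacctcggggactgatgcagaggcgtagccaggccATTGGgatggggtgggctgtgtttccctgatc
The Mvk stretch lies at chr12:47819454-47819753, minus strand, and that of Tm7sf2 at chr1:212789492-212789791, minus strand (GRCr8). Mvk has 5 matches, all before the gene start, and Tm7sf2 has 2, of which 1 is before it.

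The insulin-like growth factor axis had 1 higher and 2 lower of 9 members (median log2 -0.36). Igf1r, the receptor through which these factors support progenitor growth, had 2116 against 871 counts, 2.30-fold (95% interval 2.13 to 2.49) lower on PUCL@CNT1, and was among the 10 genes past the size rule with a mean of 1000 or more counts. Igf2bp2, which binds Igf2 and other messages, had 1297 against 608 counts (log2 -1.01). It lies at the edge of the rule, since scaling to total counts put it at log2 -0.98. Igfbp7, a secreted binding protein, had 268 against 522 counts (log2 1.04). In differentiation medium Igf1r had 1898 against 1489 counts (log2 -0.39), below 0 but not past the size rule, and Igf2bp2 had 478 against 687 (log2 0.48).

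Several BMP and Id genes were lower on PUCL@CNT1. Id proteins block proneural factors and are direct targets of BMP signalling. Of 9 members 3 were lower and 0 higher, and the median log2 ratio was -0.48. Id1 had 1849 against 708 counts (2.47-fold lower, 95% interval 2.27 to 2.70) and 1212 against 711 in differentiation medium. Id4, linked to astrocyte and stem cell maintenance, had 262 against 28 (8.86-fold lower, 95% interval 5.99 to 13.6) and 173 against 59 in differentiation medium. The receptor gene Bmpr2 had 392 against 154 (log2 -1.27) and 346 against 223. All 3 were therefore below 0 in both media, Id4 past the size rule in each.

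Among the progenitor and proneural list members counted here, few were past the size rule, and those that were stood lower on PUCL@CNT1. Emx2, a cortical patterning factor, had 416 against 123 counts (3.20-fold lower, 95% interval 2.61 to 3.95) but 228 against 535 in differentiation medium, the opposite direction. Pou3f4, a neural POU factor, had 418 against 166 (log2 -1.25). Of 15 progenitor genes 2 were lower and 0 higher (median -0.09), and of 13 proneural and neuronal factors 2 and 0 (median -0.13). The lists overlap. None of 7 Notch pathway genes was past the size rule (median -0.13), and the most abundant, the Notch inhibitor Nrarp, had 2172 against 1515 counts.

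Neuronal genes differed singly. Nrgn, which encodes the calmodulin-binding protein neurogranin of forebrain neurons, had 20624 against 7904 counts in maintenance medium, 2.47-fold (95% interval 2.41 to 2.54) lower on PUCL@CNT1, and 22134 against 16258 in differentiation medium. Snap25, of vesicle release, had 191 against 28 counts (6.46-fold lower, 95% interval 4.33 to 9.98) and 50 against 0 in differentiation medium. Elavl2, a neuronal RNA-binding protein, had 80 against 199 (2.63-fold higher, 95% interval 2.02 to 3.45) but 143 against 40 in differentiation medium. Of the other neuron markers, Tubb3, Dcx, Map2 and Syt1 had 28 against 20, 48 against 39, 552 against 614 and 31 against 42 counts, and Rbfox3, which encodes the neuronal nuclear antigen NeuN, had 29 against 1, past the size rule and lower, with 0 in both libraries in differentiation medium. Of 15 immature neuron genes 1 was higher and 0 lower, and of 9 synapse genes 0 and 1.

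Of 23 tested voltage-gated and other channel genes, 2 reached a mean of 100 counts and neither was past the size rule; the more abundant, the chloride channel Clcn2, had 275 against 305 counts. Over all 23, 5 were higher and 6 lower, mostly at counts where 44.7% to 64.3% of all genes were past the rule. Mechanosensitive channels and gap junctions had 2 of 6 higher: the polycystins Pkd2, a cation channel, with 56 against 167 counts (3.15-fold, 95% interval 2.31 to 4.34), and its partner Pkd1 with 111 against 246 (2.34-fold, 95% interval 1.86 to 2.95). Pkd2 was higher in differentiation medium as well (51 against 161), and Pkd1 was lower there (212 against 85).

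Among immediate early genes, which respond quickly to activity or growth factors, 2 of 14 were higher and none lower (median 0.03). Fosl1, an AP-1 subunit, had 95 against 352 counts (3.91-fold higher, 95% interval 3.11 to 4.96) and 126 against 266 in differentiation medium, higher on PUCL@CNT1 in both. Egr2, which is also a Schwann cell gene, had 132 against 287 counts (log2 1.20) and 307 against 206 (log2 -0.61). Of 15 growth factor response genes 1 was higher, the receptor Fgfr2 (81 against 182 counts), and 1 lower, the ligand Hbegf (367 against 169).

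Glial genes differed in both directions in maintenance medium. Of 18 astrocyte genes 3 were lower, 2 higher and 14 below 0, with a median log2 ratio of -0.31 and -0.82 in differentiation medium. Over all 22 astrocyte genes tested, 11 were lower and 0 higher in differentiation medium, against 15.6% and 15.2% of all genes tested. Among the lower ones were the sodium bicarbonate cotransporter gene Slc4a4 with 633 against 213 counts (2.82-fold lower, 95% interval 2.41 to 3.30) and the sodium pump beta subunit gene Atp1b2 with 421 against 154 (2.59-fold lower, 95% interval 2.15 to 3.14). Both were past the size rule and lower in differentiation medium too, at 1619 against 388 and 602 against 223 counts. The hyaluronan receptor gene Cd44 had 101 against 258 counts (2.70-fold higher, 95% interval 2.13 to 3.43). The secreted chaperone gene Clu had 147 against 292 (2.10-fold higher, 95% interval 1.71 to 2.57). Neither Cd44 nor Clu was past the size rule in differentiation medium (log2 0.11 and 0.80). The defining astrocyte markers were scarce, with Gfap at 0 against 19 counts and Aqp4 at 0 on both platforms. S100b had 683 against 534 counts, and 3939 against 761 in differentiation medium. Among 9 oligodendrocyte lineage genes 1 was lower, the myelin glycoprotein Mag with 208 against 39 counts (5.05-fold, 95% interval 3.57 to 7.31), and Mbp had 488 against 779.

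One integrin subunit gene stood apart among the adhesion genes. Itgb5, a beta chain that binds vitronectin, had 381 against 48 counts in maintenance medium, 7.52-fold (95% interval 5.56 to 10.4) lower on PUCL@CNT1, and 994 against 301 in differentiation medium; both PUCL libraries lay above both PUCL@CNT1 libraries, the nearest being PUCL in maintenance medium at 57.8 CPM and PUCL@CNT1 in differentiation medium at 45.3 CPM. It alone among 10 integrin and focal adhesion genes was past the size rule. Of 15 cadherin and adhesion genes 12 were below 0 (median -0.36), with p120 catenin Ctnnd1 (182 against 63 counts), the atypical cadherin Celsr2 (171 against 65) and Cdh10 (206 against 93) lower and the neuronal adhesion gene Nrcam (48 against 156) higher. Ctnnd1 (45 against 17) and Celsr2 (246 against 118) were lower in differentiation medium as well.

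Actin and matrix genes were mostly within 2-fold. Of 33 actin and contractile genes 2 were higher, the membrane-actin linkers Ezr (169 against 372 counts) and Msn (250 against 478), and 1 was lower, the LIM protein Pdlim7 (211 against 59), while 24 were below 0. Ezr and Msn were higher in differentiation medium too, at 163 against 462 and 348 against 743 counts. None of 12 YAP and TEAD genes, some of them read-outs of mechanical tension, was past the size rule, and the most abundant, the survivin gene Birc5, had 6268 against 4817 counts (list median -0.13, and 0.66 in differentiation medium). Among 18 matrix genes the laminin chain gene Lamb2 was lower (356 against 139 counts). The plasminogen activator gene Plau was lower among 13 proteases and inhibitors (456 against 178). Outside these lists, the collagen gene Col5a3 was lower in both media (1001 against 448 and 1512 against 458 counts). The collagenase gene Mmp13, with a mean under 100 counts, was higher in both (2 against 181 and 0 against 71). Col5a3 and Mmp13 lie outside the rule for named genes and were chosen after their values were seen. Annexins, galectins and S100 proteins had 3 of 14 higher and none lower: Anxa7 with 304 against 823 counts (2.86-fold, 95% interval 2.50 to 3.27), Anxa1 with 83 against 164 and S100a13 with 70 against 158. Anxa7 was the one also past the size rule and higher in differentiation medium (143 against 376).

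**Figure D3:**
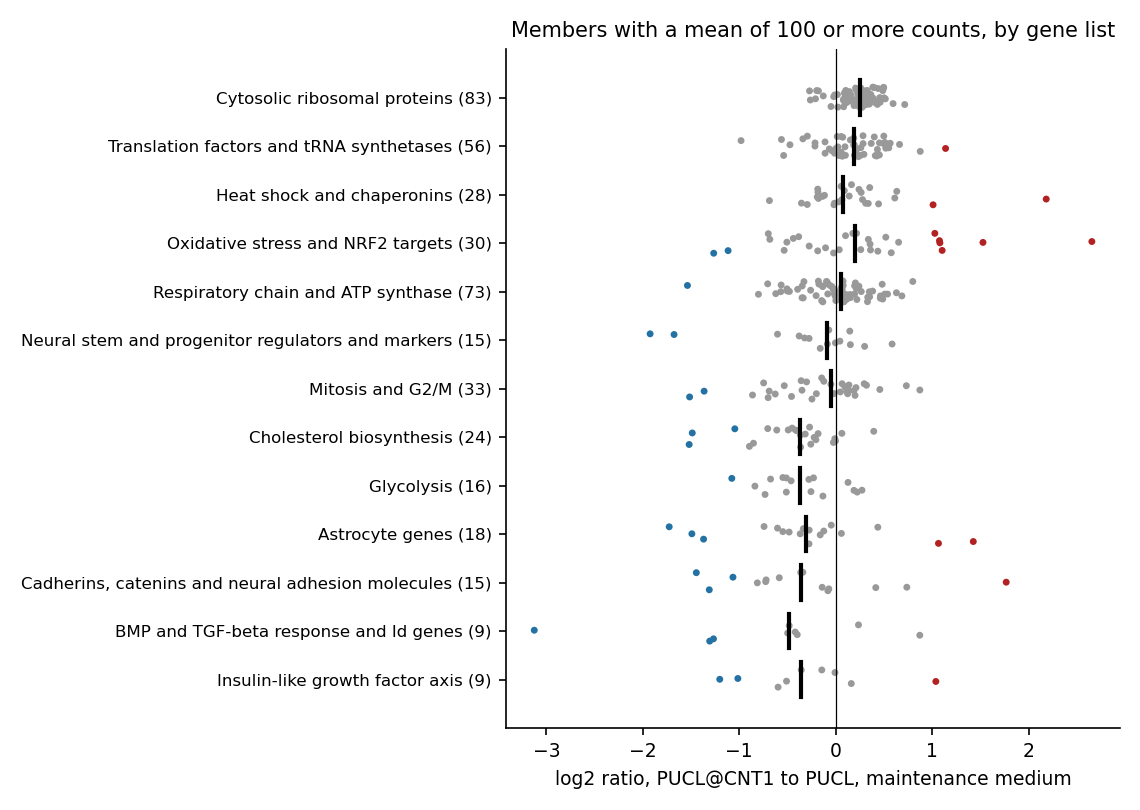
Log2 ratio of PUCL@CNT1 to PUCL in maintenance medium (x axis) for the members of 13 gene lists with a mean of 100 or more counts (number in parentheses), 1 point per gene, with a black bar at each list median. Red and blue points are past the size rule; cytosolic ribosomal proteins sit mostly right of 0 (median 0.26) and cholesterol biosynthesis mostly left (median -0.36), while most lists straddle it.

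Few division genes were past the size rule in maintenance medium. Of 31 S phase genes 3 were lower and 1 higher (median -0.15). The replicative helicase subunit Mcm5 had 358 against 110 counts (3.08-fold lower, 95% interval 2.48 to 3.85) and 391 against 80 in differentiation medium, the cyclin Ccne2 had 605 against 279 and then 715 against 327, and both were lower in each medium. The polymerase subunit Pola2 had 194 against 64 counts, and Cdc6, which loads the helicase, was the higher member with 139 against 318. Of 33 mitosis genes 2 were lower, the cyclin Ccnb2 (369 against 122 counts) and the spindle protein Hmmr (240 against 88), with a median of -0.05. In differentiation medium the medians were -0.61 for S phase and -0.45 for mitosis, further below 0 than in maintenance medium; the difference was not tested.

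Ribosomal protein genes leaned higher on PUCL@CNT1 by small amounts. Of 83 cytosolic ones 74 were above 0, with a median log2 ratio of 0.26 and 0.43 in differentiation medium, and none past the size rule. Rps14, the most abundant, had 25865 against 28457 counts. Translation factors and tRNA synthetases had 43 of 56 above 0 (median 0.19), of which 1, the initiation factor gene Eif1a, was past the size rule (109 against 228 counts, and 124 against 396 in differentiation medium). Respiratory chain genes had 41 of 73 above 0 (median 0.06), and 1, the complex I subunit gene Ndufa8, was lower (289 against 94 counts). Ribosomal RNA went the other way: the entry Rn45s took 5.66% of all counts in the PUCL library and 4.54% in the PUCL@CNT1 library, Rn18s 2.08% and 1.44%, and Rn28s 3.53% and 3.06%, entries that overlap. Their part in the lean of the ribosomal protein genes was not tested beyond the scaling: relative to TMM, the median log2 ratio of all genes moved by 0.03 when scaled to total counts and by -0.01 when scaled to totals without these entries.

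The largest ratios among well-counted genes, 12 in each direction with a mean of 300 or more counts, came mostly in genes outside the lists above, the exceptions being Hmox1, Adm, Anxa7 and Slc4a4. At that abundance 1.23% of 3578 genes were higher and 2.01% lower, 3.24% in all. Higher on PUCL@CNT1 beside Hmox1, Adm and Anxa7 were the ciliary transport gene Ift52 with 194 against 680 counts (3.70-fold, 95% interval 3.15 to 4.36), the mitochondrial outer membrane gene Synj2bp with 154 against 492 (3.37-fold, 95% interval 2.81 to 4.07), the chromatin kinase gene Tlk1 with 173 against 495, the membrane insertion gene Emc7 with 238 against 632, the kinase gene Slk with 184 against 457, the clamp loader gene Rfc1 with 543 against 1331, the nuclear pore gene Nup98 with 182 against 436, the chromatin reader gene Brpf1 with 202 against 481 and the esterase gene Siae with 184 against 432. Of these 9, Ift52, Tlk1 and Slk were also above 0 in differentiation medium (log2 0.87, 0.59 and 0.38) and the other 6 were below.
Lower on PUCL@CNT1 beside Slc4a4 were Fgl2, a fibrinogen-like protein gene, with 741 against 155 counts (4.53-fold, 95% interval 3.80 to 5.42), the mitochondrial gene Chchd10 with 726 against 185 (3.72-fold, 95% interval 3.16 to 4.39), Lzts2 with 523 against 143, the helicase gene Dhx30 with 716 against 199, the nucleotide exchange factor gene Arhgef2 with 484 against 138, the replication protein A subunit Rpa3 with 1093 against 319, the ubiquitin ligase gene Siah1 with 476 against 141, Tsc22d4 with 632 against 223, MGC94199 with 502 against 183, the kinase gene Cdc42bpb with 581 against 212 and the skeletal muscle myosin gene Myh4 with 1199 against 379. In differentiation medium Cdc42bpb and MGC94199 were again past the size rule and lower (567 against 291 and 568 against 259 counts), and Arhgef2 and Myh4 were past it and higher.

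Myh4 was not alone: many genes of skeletal muscle contraction and metabolism, a tissue outside the label, had counts in the 4 libraries and stood lower on PUCL@CNT1 in maintenance medium. A list of 30 such genes was drawn up after Myh4 had been seen, so its counts are a description; 1 of its genes is also in a list above. Of 27 found and tested, 26 were below 0 in maintenance medium and 15 of them past the size rule, with a median log2 ratio of -1.31; of all 10516 genes tested 13.9% were lower. Of the 8 with a mean of 100 or more counts, 6 were lower, against 6.02% of all such genes. The fast myosin genes Myh4 and Myh2 had 1199 against 379 and 353 against 91 counts, the skeletal actin gene Acta1 649 against 244, the muscle calcium pump gene Atp2a1 773 against 302 and the troponin gene Tnnt3 191 against 34. In differentiation medium the direction turned, with 22 of 27 above 0, a median of 1.14, and Myh4 at 1129 against 2852 and Acta1 at 702 against 2222 counts. The summed level of the list was 820 and 351 CPM on PUCL and PUCL@CNT1 in maintenance medium and 779 and 1849 CPM in differentiation medium. Its part in the other results was not tested.

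Genes at 0 in 1 maintenance library were common at low counts, 452 past the size rule at 0 on PUCL and 539 at 0 on PUCL@CNT1. The highest-counted of these on PUCL@CNT1 were the splicing regulator gene Celf2 with 141 counts, the G protein regulator gene Rgs2 with 135, the phosphatase gene Dusp18 with 123 and Trove2 with 113, at least 49.6-fold, 47.5-fold, 43.3-fold and 39.8-fold higher when 0 is set at 3 counts per library. On PUCL they were the protocadherin gene Pcdh11x with 159, Elmo3 with 117, Usp51 with 117 and the acetyl-CoA carboxylase gene Acaca with 115, at least 50.2-fold, 36.9-fold, 36.9-fold and 36.3-fold lower on PUCL@CNT1. These bounds leave out scatter between libraries. Celf2 and Trove2 were again higher in differentiation medium (0 against 41 and 9 against 153 counts) and Pcdh11x and Elmo3 again lower (126 against 48 and 54 against 0), whereas Rgs2 (15 against 0) and Usp51 (0 against 70) turned round.

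How far a maintenance difference was seen again can be read from the differentiation pair, which shares no library with it. Of the 297 higher genes 51 were also higher there (17.2%, against 7.68% of all 6110 genes higher in that medium) and 40 lower (13.5%, against 8.61%). Of the 368 lower genes 83 were also lower (22.6%, against 8.61%) and 32 higher (8.70%, against 7.68%). Genes past the size rule in both media in the same direction were thus 0.835% of the 6110 for higher and 1.36% for lower, and 2.52% and 3.17% of all 10516 genes tested. Below 100 counts the calls that repeated and those that turned were about as many, with 192 and 180 of 840 among genes of 30 to 100 counts. The excess of repeated calls lay mainly at 100 to 300 counts, with 119 repeated and 62 turned of 549. At 300 to 1000 counts 13 repeated and 10 turned of 106, and at 1000 or more 2 repeated and 0 turned of 10. At 300 or more, the higher calls had 5 of each among 44, and the lower calls had 10 repeated and 5 turned among 72. In the plot of the 2 media against each other, the maintenance calls spread over both signs of the differentiation ratio.

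**Figure D4:**
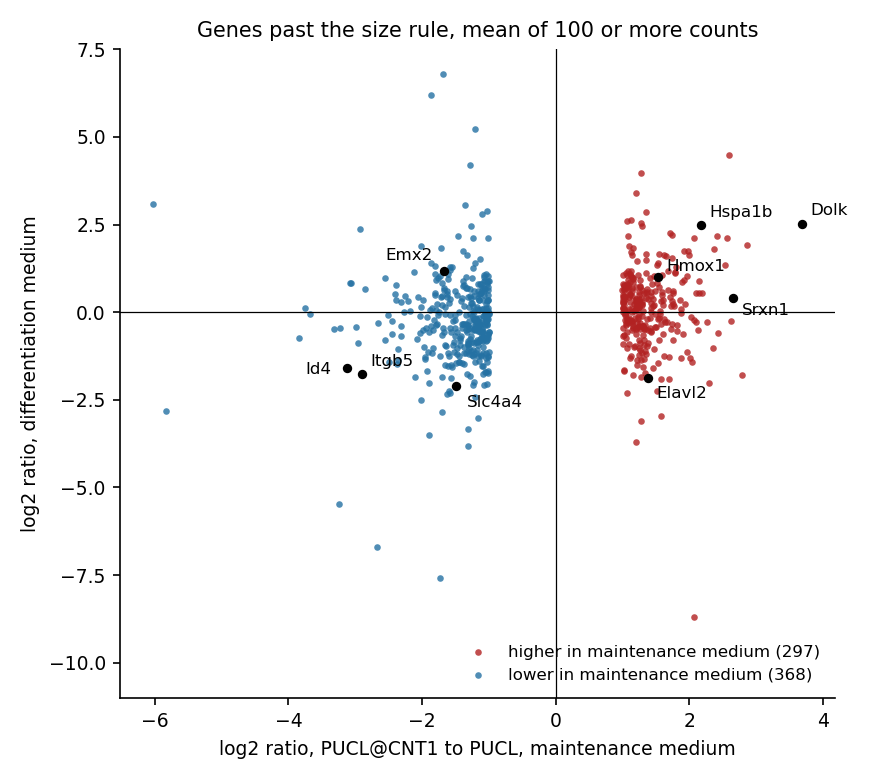
Log2 ratio of PUCL@CNT1 to PUCL in maintenance medium (x axis) and in differentiation medium (y axis) for the 665 genes past the size rule in maintenance medium with a mean of 100 or more counts; red, 297 higher; blue, 368 lower; black dots, labelled genes. Points above 0 on the right and below 0 on the left keep their direction, as Hspa1b and Itgb5 do, and Emx2 and Elavl2 do not.

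The largest repeated differences among genes with a mean of 100 or more counts over the 4 libraries are given with their counts in maintenance and then in differentiation medium. Higher in both were Dolk, the dolichol kinase gene, with 18 against 226 and 56 against 335 counts, the F-box gene Fbxo9 with 60 against 345 and 6 against 150, the neuronal zinc finger gene Bcl11b with 50 against 347 and 56 against 217, the stress granule gene Tia1 with 34 against 193 and 54 against 242, and, beside Hspa1b, Ubap1, Slc25a32 and Slc9a3r2 with log2 ratios of 2.37, 2.06 and 1.98 in maintenance medium. Lower in both were Peli2, a ubiquitin ligase gene, with 210 against 3 and 286 against 41, the chloride transporter gene Clcn6 with 285 against 28 and 149 against 3, Nprl2, an mTORC1 inhibitor, with 173 against 13 and 173 against 48, the acetate-activating enzyme gene Acss1 with 128 against 18 and 279 against 60, the methionine synthase gene Mtr with 280 against 71 and 123 against 31, and Limch1 and Vcpip1 with log2 ratios of -1.97 and -2.01 in maintenance medium.

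A platform difference averaged over both media can be tested over the 4 libraries with edgeR's quasi-likelihood test, where the media stand in for replicates. It leaves 1 residual degree of freedom, so that the spread is borrowed mostly from other genes. A call does not need a difference in each medium. Igfbp5, chosen after its values were seen, was called with log2 ratios of -0.01 in maintenance and 1.95 in differentiation medium. With Benjamini-Hochberg adjustment 22 of 10516 genes rose on PUCL@CNT1 (0.209%) and 26 fell (0.247%), 0.456% in all. Genes with an unadjusted p under 0.05 were 6.95%. Of the calls, 7 higher and 12 lower ones were past the size rule in the same direction in maintenance medium. Adm rose by a fitted log2 of 1.24 (SE 0.22, edgeR adjusted p 0.000325), Hmox1 by 1.27 (SE 0.23, edgeR adjusted p 0.000622) and Hspa1b by 2.33 (SE 0.44, edgeR adjusted p 0.000991). Cdkn1a rose as well, by 1.01 (SE 0.21, edgeR adjusted p 0.0056), with Dolk, Fbxo9, the actin-binding gene Nexn and the tubulin ligase gene Ttll1 (edgeR adjusted p 0.0102, 0.0102, 0.0193 and 0.0186). Among genes that fell were Nrgn with -0.90 (SE 0.14, edgeR adjusted p 5.02e-05), the protease inhibitor gene Cst3 with -0.71 (SE 0.11, edgeR adjusted p 5.02e-05; 31513 against 17841 counts in maintenance medium), Itgb5 with -2.30 (SE 0.40, edgeR adjusted p 0.000252), Slc4a4 with -1.80 (SE 0.32, edgeR adjusted p 0.000325) and Btbd17 with -1.25 (SE 0.25, edgeR adjusted p 0.00342). Id1 fell at an edgeR adjusted p of 0.0429, and the progenitor marker Slc1a3 at 0.0457, both near the threshold of 0.05, while Igf1r and Srxn1 did not pass (edgeR adjusted p 0.149 and 0.567). The ribosomal RNA entries Rn18s, Rn45s and Rn28s fell too (edgeR adjusted p 9.46e-07, 1.25e-06 and 0.000622).

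Some lists had 2 or more edgeR calls for the average of both media, and some of these share genes. They had 6 lower of 22 astrocyte genes, 3 lower of 33 pumps and transporters and 2 lower of 22 progenitor genes (Slc1a3 and the phosphatase receptor gene Ptprz1). Higher were 3 of 86 cytosolic ribosomal proteins, 2 of 32 heat shock genes and 2 of 27 p53 targets. The calls depend on the fit. Without the medium term, and on genes with a mean of 300 or more counts alone, edgeR made no call (388 and 371 genes at an unadjusted p under 0.05), while DESeq2 made 36, of which 21 were shared. Hmox1, Adm, Nrgn, Cst3 and Cdkn1a passed in 3 of 5 other tests each, Slc1a3 in 2 of 5, Slc4a4, Itgb5, Hspa1b, Btbd17 and Nexn in 2 of 4, Id1 in 1 of 4, and Dolk, Fbxo9 and Ttll1 in 1 of 3. In limma-voom the adjusted p of these last 3 was 0.300, 0.393 and 0.308.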

How the data were processed

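The authors deposited whole-number counts for each gene symbol, with no normalization, made with Bowtie2, bedtools and the rn6 genome build, per the submitters' processing notes; versions, annotation, strand setting and filters are not given in the sources used here. Without them, a gene and an antisense or overlapping neighbour cannot be told apart. Counts of 149 symbols with several entries (316) were summed; 74 of these had counts, Eno2 and Actg1 among them, and are uncertain.

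Of 16881 symbols, 10516 with 10 or more counts in at least 1 of the 4 libraries were tested and 6365 were left out; 542 tested genes were at 0 in both maintenance libraries. Libraries were scaled by TMM (factors 1.01 and 1.03), with a prior count of 0.5 in log2 ratios and exact Clopper-Pearson intervals at 95%. For genes at 0, CPM limits and fold values set 0 at 3 counts (0.455 and 0.480 CPM). The size rule, a ratio of 2-fold with its nearer bound beyond 1.5-fold, is described in the results. The platform term was fitted in edgeR 4.0.16 (R 4.3.3) with medium as the second term, Benjamini-Hochberg threshold 0.05; DESeq2 1.42.0 and limma 3.58.1 were alternatives. The scripts were tested on simulated data; ratios used Python 3.11.15 and scipy 1.17.1.

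In the 53 gene lists, 1411 different genes were tested. Named genes were, per list, up to 6 members past the size rule with a mean of 100 or more counts (or the most abundant member); the 12 largest ratios each way at a mean of 300 or more; the 4 highest counts each way at 0 in the other library; the 8 largest each way past the rule in both media at a mean of 100 or more counts over 4 libraries; the 8 smallest edgeR p each way; and the cell type markers. Some genes named by this rule are not reported here. The comparison and the lists were chosen with earlier results of these data known. Against RefSeq, 14393 symbols were current, 2096 older and 392 in neither class.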

Additional observations from a re-analysis of the deposited data

Results flagged for a closer look

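Among the named genes, 14 were past the size rule in opposite directions in the 2 media, so that the platform ratio in maintenance medium was turned round in differentiation medium; the difference between the media was not tested, and with 1 library per group none of it has a replicate check. Lower on PUCL@CNT1 in maintenance medium and higher in differentiation medium were Arhgef2 (log2 -1.73 and 1.03), the V-ATPase subunit gene Atp6v1h (-1.62 and 1.08), Emx2 (-1.68 and 1.19), Eno2 (-1.08 and 1.02), Hmmr (-1.36 and 3.07), Myh4 (-1.58 and 1.30), the splicing regulator gene Rbfox2 (-1.10 and 2.80) and Tm7sf2 (-1.05 and 1.08). Higher in maintenance medium and lower in differentiation medium were Elavl2 (1.39 and -1.87), Nup98 (1.34 and -1.09), the pyruvate dehydrogenase kinase gene Pdk3 (1.32 and -1.33), Pkd1 (1.22 and -1.35), S100a13 (1.25 and -1.03) and Siae (1.31 and -1.56).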

How the results depend on the processing

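Scaling by total counts, DESeq2 size factors or totals without ribosomal RNA entries, dropping the low count filter, using the 2-fold line alone, or taking the highest entry of a symbol kept both size rule counts within 1.5 times of 1278 higher and 1466 lower. A mean of 300 or more counts left 44 and 72, and a 4-fold rule with its bound beyond 2-fold left 725 and 848, both stricter by construction. Of single gene values 727 kept their side of the rule and 1, that of Igf2bp2, did not. Values with a prior count of 5 are among them and could not change side, since the prior does not enter the rule. The other settings were scalings that moved the median log2 ratio by 0.03 at most. This tally therefore says little about single genes. Direction was compared only for genes past the rule, and no such gene turned. Of list medians 192 stayed and 19 moved, each on leaving out members under 100 counts. The edgeR platform counts of 22 higher and 26 lower became 50 higher in limma-voom, 14 lower in DESeq2 and 13 and 15 with total counts. They became 0 and 0 on genes with a mean of 300 or more counts, and 0 and 0 in the fit without the replicate block, where medium stood in for it and platform was the only term; the cause was not tested. Leaving out 1 library in turn, with platform as the only term and the lone library of a platform assumed to vary like the others, gave 0 to 4 higher and 0 to 22 lower: 0 and 2 without PUCL in maintenance medium, 4 and 5 without PUCL@CNT1 in it, 0 and 0 without PUCL in differentiation medium (334 at an unadjusted p under 0.05) and 4 and 22 without PUCL@CNT1 in it. Scarce genes varied most: of those with a mean of fewer than 10 counts, 76.0% were at 0 in 1 maintenance library. At a mean of 10 to 30 counts 40.8% were. There the median absolute log2 ratio was 3.24, where counting error alone would give 0.32. The source of this scatter was not tested.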

Other observations

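Most lists not described above held few members past the size rule among genes with a mean of 100 or more counts, against 4.86% higher and 6.02% lower of all such genes. Proteasome genes, which break down tagged proteins, had 24 of 36 above 0 (median log2 0.15), with the activator Psme2 higher (69 against 183 counts). Citric acid cycle and pyruvate genes had 2 of 24 higher, the pyruvate dehydrogenase subunit gene Pdha1 (297 against 607) and its inhibitor Pdk3 (114 against 271). Splicing genes had 2 of 46 lower, Srsf5 (240 against 60; 171 against 79 in differentiation medium) and Rbfox2 (182 against 80). Among 33 chromatin genes the remodeller gene Chd2 was higher (406 against 784) and the DNA methyltransferase gene Dnmt3a lower (728 against 309). The axonal motor gene Kif1b was the lower one of 26 tubulin and motor genes (315 against 54, 5.53-fold, 95% interval 4.13 to 7.52).

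Lysosome genes had 2 of 29 lower, the protease gene Ctsa (277 against 83) and Atp6v1h (357 against 110), and the sialidase gene Neu1 higher (66 against 156). Autophagy genes had 2 of 22 lower, Wipi1 (189 against 31) and the kinase gene Ulk2 (423 against 171), both near 1-to-1 in differentiation medium (log2 -0.08 and -0.17). Pumps and transporters had more, with 4 of 25 lower, Slc4a4 and Atp1b2 among them, and 1 higher. The guidance receptor gene Ephb3 was the higher one of 11 axon guidance genes (41 against 159), and among 10 glucocorticoid response genes the clock gene Per2 was higher (137 against 305) and Cebpd lower (360 against 147). None of 12 Wnt genes and none of 8 inflammation genes was past the rule, with the most abundant, Sfrp1 and B2m, at 671 against 620 and 2481 against 3179 counts. Mitochondrial ribosomal proteins had 2 higher and 1 lower of 64 (median -0.05).

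Promoter letters were also counted in other lists. The cell cycle homology region TTTGAA was found in 24 of 31 mitosis promoters (77.4%) against 18.1% of all, and the hypoxia core ACGTG in 14 of 23 hypoxia promoters (60.9%) and 10 of 22 glycolysis promoters (45.5%) against 19.7%, both strands searched. ACGTG was about as common in several other lists, with 56% of translation factor, 48.9% of splicing, 48% of endoplasmic reticulum and 45.2% of lysosome promoters. The next share for TTTGAA was 4 of 10 microglia promoters.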
